A study of Mus musculus with 18 samples.

Results

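The methylomes of skeletal muscle and T cells were compared in superaged mice, 28 months old, over 500-bp bins on chromosomes 1 to 19. The members were the 4766940 bins with a read in at least 1 of the 2 columns, of 4783931 bins on these chromosomes and 5128560 bins in the whole table. The study captured methylated DNA with a methyl-CpG-binding domain protein and sequenced it (MBD-seq) from hindlimb muscle and splenic T cells, taken from female mice of the C57BL/6J strain at 2, 20 and 28 months, and it also sequenced muscle RNA. DNA of 3 mice was pooled by age before capture, so that each tissue and age had 1 column of values. T cells were taken from spleen by magnetic negative selection with a pan-T kit, without a stated purity. Muscle was homogenized whole, and its capture was run in 2 rounds, of which the column names none. No value between the tissues has a replicate check, and all comparisons below are descriptions with no test.

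DNA methylation in mammals is a mark on the cytosine of CpG dinucleotides, laid down by DNA methyltransferases and copied at replication. Most CpGs are methylated in every tissue, whereas CpG-rich promoters and the enhancers and promoters active in a cell type are kept free of it, so tissues differ mainly at regulatory regions. In MBD-seq, a bin with more methylated CpGs gives more reads, and a bin with few CpGs gives few reads even when they are methylated.

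The stretches below show the kind of site at which the tissues differed at 28 months. They are GRCm38 reference sequence, outside annotated exons, from the bins with the largest differences at named promoters and from 3 further bins chosen after their values were seen, and capitals mark the CpGs. In the first set the T-cell column was higher, and in the second the muscle column was higher.
Igsf9b, chr9:27299666-27299965, plus strand: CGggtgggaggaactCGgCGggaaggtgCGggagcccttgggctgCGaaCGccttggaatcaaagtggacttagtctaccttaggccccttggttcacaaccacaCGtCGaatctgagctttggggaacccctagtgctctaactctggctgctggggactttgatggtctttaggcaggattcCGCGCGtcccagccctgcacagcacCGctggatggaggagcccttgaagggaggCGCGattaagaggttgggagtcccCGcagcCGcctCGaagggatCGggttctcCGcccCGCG
Ctbp2, chr7:133124001-133124288, plus strand: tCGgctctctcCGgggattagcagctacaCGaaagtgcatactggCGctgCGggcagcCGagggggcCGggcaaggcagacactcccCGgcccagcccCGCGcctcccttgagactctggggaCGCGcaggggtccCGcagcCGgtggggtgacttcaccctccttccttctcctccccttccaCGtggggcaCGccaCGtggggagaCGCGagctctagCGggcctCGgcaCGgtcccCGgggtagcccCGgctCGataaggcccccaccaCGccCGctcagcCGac
Nfic, chr10:81414001-81414300, plus strand: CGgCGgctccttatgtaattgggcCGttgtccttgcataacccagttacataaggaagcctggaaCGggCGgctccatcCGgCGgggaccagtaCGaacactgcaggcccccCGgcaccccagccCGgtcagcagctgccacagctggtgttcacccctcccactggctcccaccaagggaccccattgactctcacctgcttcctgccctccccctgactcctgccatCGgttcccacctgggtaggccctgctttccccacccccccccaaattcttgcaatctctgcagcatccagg
Mbnl2, chr14:120296532-120296831, plus strand: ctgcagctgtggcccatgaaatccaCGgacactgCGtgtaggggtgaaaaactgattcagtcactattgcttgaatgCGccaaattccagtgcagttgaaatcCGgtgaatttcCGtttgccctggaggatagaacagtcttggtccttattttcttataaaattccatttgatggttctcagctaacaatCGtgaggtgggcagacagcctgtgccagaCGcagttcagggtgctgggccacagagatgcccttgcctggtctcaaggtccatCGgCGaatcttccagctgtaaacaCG
Fermt3, chr19:7019604-7019903, plus strand: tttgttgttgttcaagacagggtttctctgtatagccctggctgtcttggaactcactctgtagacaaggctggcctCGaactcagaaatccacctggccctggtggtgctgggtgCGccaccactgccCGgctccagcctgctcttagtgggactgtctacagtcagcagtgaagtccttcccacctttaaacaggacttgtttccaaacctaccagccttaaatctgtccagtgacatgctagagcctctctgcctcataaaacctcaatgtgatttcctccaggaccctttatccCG
Gpr132, chr12:112860008-112860307, plus strand: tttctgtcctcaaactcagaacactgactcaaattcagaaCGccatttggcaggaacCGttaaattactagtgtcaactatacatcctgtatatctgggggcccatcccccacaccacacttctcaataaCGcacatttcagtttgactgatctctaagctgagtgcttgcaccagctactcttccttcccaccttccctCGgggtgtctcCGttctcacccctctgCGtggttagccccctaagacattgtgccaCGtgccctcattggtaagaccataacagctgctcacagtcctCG
Glipr1, chr10:111996159-111996458, plus strand: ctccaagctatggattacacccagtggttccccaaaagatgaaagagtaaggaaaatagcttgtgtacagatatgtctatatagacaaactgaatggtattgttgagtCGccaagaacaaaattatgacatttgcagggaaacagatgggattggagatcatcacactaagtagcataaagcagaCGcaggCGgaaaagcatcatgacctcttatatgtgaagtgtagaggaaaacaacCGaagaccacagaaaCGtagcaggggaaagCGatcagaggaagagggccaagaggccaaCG
Cytip, chr2:58159570-58159869, plus strand: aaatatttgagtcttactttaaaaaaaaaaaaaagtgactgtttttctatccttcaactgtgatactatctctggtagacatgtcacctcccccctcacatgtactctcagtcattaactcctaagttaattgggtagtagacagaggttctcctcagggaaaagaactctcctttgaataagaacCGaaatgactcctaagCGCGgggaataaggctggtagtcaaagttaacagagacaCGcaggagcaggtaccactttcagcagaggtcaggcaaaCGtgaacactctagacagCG

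Counts and CpGs are for the whole 500-bp bin around each stretch. The Igsf9b bin held 33 CpGs and 0 normalized counts in muscle against 97.8 in T cells at 28 months, and the Ctbp2 bin held 47 CpGs and 0.637 against 112. The Fermt3 bin held 5 CpGs and 31.2 counts in muscle against 0 in T cells, and the Gpr132 bin 10 CpGs and 35.1 against 0. The Nfic and Mbnl2 bins, with 15 and 13 CpGs, gave 3.82 and 3.19 counts in muscle and 68.7 and 81.9 in T cells. The 3 printed muscle-higher promoter bins had 0 counts in T cells at 2 months as well, and the Cytip bin had 1.02. Bins at Speer4e and Sptbn1 were also among the 5 most extreme muscle-higher promoter bins but are not printed. At 2 months these had 5.08 and 4.06 counts in T cells and 0.910 and 19.1 in muscle, so the Speer4e bin was then lower in muscle. The Ctbp2 bin had 1.02 counts in T cells at 2 months and 7.30 at 20 months, so its difference was seen in full only in the oldest column.

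The muscle columns held 131018972 to 135481942 recovered reads on these chromosomes and the T-cell columns 186234703 to 197462756. The 28-month muscle column stood apart from the other muscle columns. Of the bins above, 0.112% had no muscle read and 28.8% no T-cell read. Among the bins with a read in either tissue at the younger ages, 4435467 at 2 months and 4465265 at 20 months, 4.51% and 3.28% had no muscle read. The SD of log2(count + 1) over bins was 1.06 in muscle at 28 months, against 1.72 and 1.62 in the younger muscle columns and 2.30 in T cells at 28 months. The slope of muscle on T cells over bins was 0.33 at 28 months, against 0.71 at 2 months and 0.61 at 20 months. The capture, the mice and the age of this column cannot be told apart.

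The T-cell label was checked at the antigen receptor loci, which rearrange and are demethylated in the lymphocyte lineage that uses them. Over the 60 J segments of the T cell receptor alpha chain (chr14:54155005-54218842), muscle had 3488 counts and T cells 1333 at 2 months, a log2 ratio of 1.39. At 28 months the same stretch had 2825 counts in muscle and 3320.3 in T cells, a log2 ratio of -0.23. The median of 100-kb windows with a like CpG density was -0.07 at 2 months and -0.61 at 28 months, so the excess over such windows was 1.46, 0.46 and 0.38 at the 3 ages from youngest to oldest. Over the D, J and constant segments of the beta chain (chr6:41533201-41548352) the excess was 1.59, 0.59 and 0.03 in the same order. Thus, over the alpha J and the beta D, J and constant segments the excess was smaller at 28 months than at 2 months. Over the segments of the gamma chain it was not, with 0.17, 0.18 and 0.26 at the 3 ages. The constant, J and D segments of the immunoglobulin heavy chain, used by B cells, had an excess of -0.31 at 2 months and -0.17 at 28 months. In the plot of the receptor loci, the 5 heavy chain windows from 0.20 to 0.60 Mb past the first segment had an excess of -0.56 to -0.06 at 2 months and of 0.47 to 0.67 at 28 months. The highest of these was above the highest T cell receptor alpha/delta window at 28 months, 0.59. The other B cell loci did not rise in this way. The kappa and lambda light chain segments had an excess of -0.03 and -0.07 at 2 months and of -0.32 and -0.14 at 28 months. The heavy chain V segments together had -0.32 and -0.06. The shares of cell types behind each column were not measured. Fewer cells of a type, DNA copies lost by the rearrangement and a change of methylation within cells cannot be told apart.

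**Figure D1:**
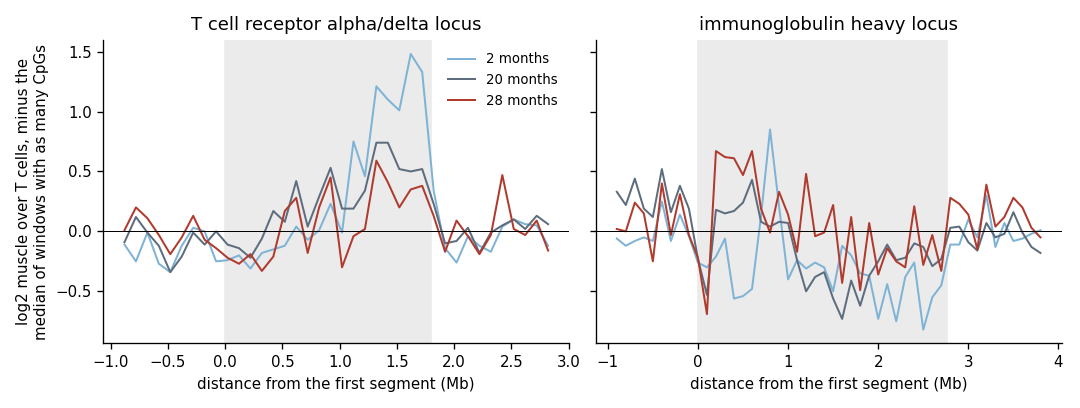
Log2 ratio of muscle to T cells in 100-kb windows across the T cell receptor alpha/delta locus and the immunoglobulin heavy chain locus, minus the median of windows with as many CpGs, against the distance from the first segment in Mb. Grey marks the locus, and lines are the 3 ages. The highest value across the alpha/delta locus and its flanks is 1.48 at 2 months and 0.59 at 28 months. At the heavy chain locus, 5 windows from 0.20 to 0.60 Mb rise from at most -0.06 at 2 months to at least 0.47 at 28 months. The window at 0.10 Mb goes from -0.30 to -0.69.

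Over single bins, muscle gave the higher value at most sites in superaged mice. The median count per bin was 13.4 in muscle and 5.29 in T cells, and the median difference of log2(count + 1) was 1.04, with an SD over bins of 1.70. At 2 months the median difference was 0.15 (SD 1.12) and at 20 months 0.31 (SD 1.27). Bins over 2-fold higher in muscle made up 50.7% of the members at 28 months, against 21.4% at 2 months and 29.5% at 20 months. Bins over 2-fold higher in T cells made up 14.4%, against 12.3% and 11.7%. Over 4-fold, the shares higher in muscle were 6.39%, 11.2% and 31.6% at 2, 20 and 28 months, and those higher in T cells 2.32%, 1.94% and 2.60%. These counts depend on the scale: with each column set to the same sum, 3628623 bins were over 2-fold higher in muscle and 40386 in T cells, against 2419131 and 688221 with the deposited scaling. The shift between the scalings was 1.51 (log2), and the 1000 fullest bins held 60.5% of the T-cell counts and 11.5% of the muscle counts.

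A change of scale moves all bins by the same log2 step, apart from the 1 added to each count, and leaves their order along the CpG number. In bins without a CpG the median was 3.82 counts in muscle and 0 in T cells at 28 months. In bins with 6 CpGs it was 22.3 in muscle and 26.4 in T cells, and in bins with 18 CpGs it was 36.3 and 143. The median log2 difference went from 1.83 at 0 CpGs and 2.27 at 1 CpG to -0.25 at 6, -1.12 at 9 and -1.86 at 18 CpGs. The trend did not hold at the CpG-densest end, since the 21430 bins with 31 or more CpGs had a median difference of 0.00, with 3.82 counts in muscle and 2.64 in T cells, and 38.0% of them were over 2-fold higher in muscle and 42.7% in T cells. At 0, 6, 9 and 18 CpGs the median difference was 0.00, -0.05, -0.18 and -0.13 at 2 months. At 20 months it was 0.00, -0.05, -0.49 and -0.77. The wide spread of counts over CpG numbers in T cells was thus matched by a narrow one in the 28-month muscle column. Among bins with 9 CpGs, 57.6% were over 2-fold higher in T cells and 2.63% in muscle, whereas among bins with 1 CpG 1.35% and 81.3% were.

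**Figure D2:**
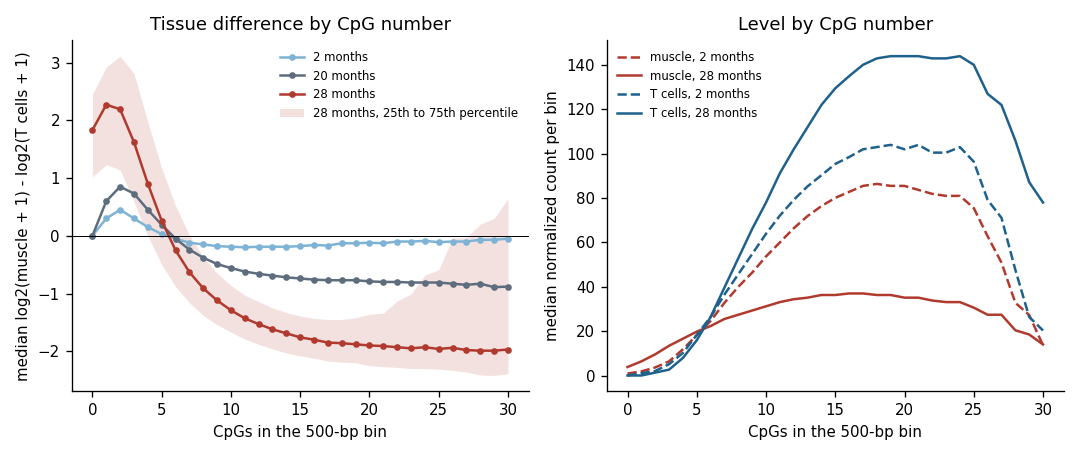
Left, median difference of log2(count + 1), muscle minus T cells, against the number of CpGs in the bin at 3 ages, with the 25th to 75th percentile at 28 months shaded. Right, median normalized count per bin in each tissue at 2 and 28 months; the 28-month muscle line runs from 3.82 at 0 CpGs to 36.3 at 18 CpGs, and the T-cell line from 0 to 143, and bins with 31 or more CpGs are not drawn.

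By place, exons were the only one of the 4 classes in which the median was below 0 at 28 months. It was -0.54 over 265519 exon bins, with a median of 6 CpGs, and 37.9% of them were over 2-fold higher in T cells. Bins between genes, with a median of 3 CpGs, had a median of 1.26, and 56.2% of them were over 2-fold higher in muscle. Introns had a median of 0.78. Promoter bins (within 1000 bp of the start of a protein-coding gene) had 0.58, with both tails large, 42.2% over 2-fold higher in muscle and 24.0% in T cells. At 2 months the 4 medians lay between -0.01 and 0.08. Bins over 90% masked as repeats had a median of 1.17, and bins under 10% masked had 0.61. Between chromosomes the median ranged from 0.58 on chromosome 17, with 4.64 CpGs per bin, to 1.25 on chromosome 3, with 3.81.

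Summed over 100-kb windows, the tissues were much closer than over single bins, but the spread was wider in superaged mice than before. The median log2 ratio over 24037 windows was -0.14 at 28 months with an SD over windows of 0.65. At 2 months the SD was 0.19, and at 20 months 0.37. Windows over 1.5-fold higher in muscle numbered 4053 (16.9%) and those higher in T cells 5708 (23.7%), against 67 (0.279%) and 175 (0.728%) at 2 months and 1127 (4.69%) and 1531 (6.37%) at 20 months. With each column set to the same sum, the counts were 22096 and 16. The window difference had a Spearman correlation of -0.92 with the number of CpGs in the window, against -0.61 at 2 months, as a description over windows that share both libraries. The 654 windows with under 400 CpGs had a median ratio of 1.25, and the 665 windows with 1600 CpGs or more had -1.15. In the CpG-rich windows the median muscle count was 6858 at 2 months and 4685 at 28 months, and the median T-cell count was 7813 and 10417. These levels rest on the deposited scaling, in which 1 read was worth 0.910 counts in muscle and 1.02 in T cells at 2 months and 0.637 and 1.32 at 28 months, so a difference between ages within a tissue cannot be told apart from the scaling. After subtraction of the median of windows with as many CpGs, the SD over windows was 0.28 at 28 months and 0.16 at 2 months, and 297 windows were over 1.5-fold higher in muscle and 462 in T cells.

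**Figure D3:**
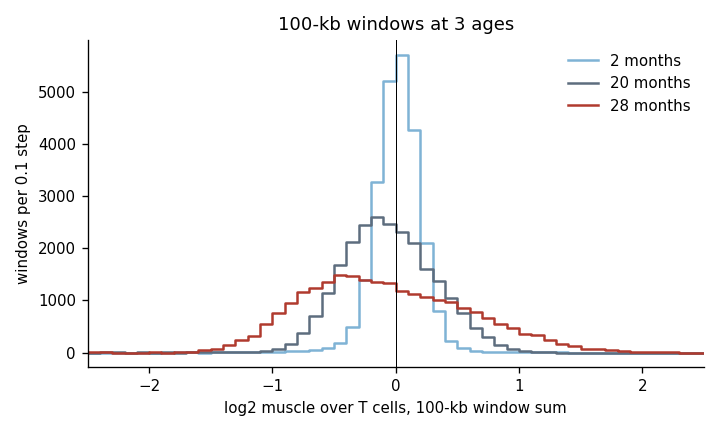
Number of 100-kb windows on chromosomes 1 to 19 per 0.1 step of the log2 ratio of muscle to T cells, at 2, 20 and 28 months. The SD over windows is 0.19, 0.37 and 0.65 in that order, and the few windows beyond 2.5 on either side are not drawn.

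The windows with the lowest ratios included places with very high counts in few bins. The window at chr2:98600001-98700000, known for satellite repeats that many genomic copies map to, had 84162526 counts in T cells and 5151346 in muscle at 28 months, a log2 ratio of -4.03. At 2 months the same window had 62807174 and 19466067 counts, a log2 ratio of -1.69. In T cells 99.2% of its counts lay in 5 bins. The windows at chr12:3100001-3200000, chr9:35300001-35400000, chr9:3000001-3100000 and chr14:19400001-19500000 had ratios of -4.03, -3.99, -3.92 and -3.71. The window at chr17:39800001-39900000, which holds a copy of the 45S ribosomal RNA gene, had 187551 counts in T cells and 30107 in muscle, a ratio of -2.64, against -0.88 at 2 months. Among windows with at least 500 counts in each tissue, chromosome 18 left out, all 10 lowest were lower in muscle at 2 months too, with ratios from -1.70 to -0.55. The counts were not packed into few bins in all of them. At chr6:47700001-47800000, which holds Pdia4, 5 bins had 18.2% of the T-cell counts, and at chr6:114500001-114600000, with 2858 CpGs and 76.0% of its bases masked as repeats, they had 5.69%. Where reads from many near-identical copies meet, as at the satellite repeats, the values describe the copies together.

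The highest window was chr1:24600001-24700000, with 28599 counts in muscle and 3799 in T cells, a log2 ratio of 2.91. Of its muscle counts, 90.1% lay in 10 bins, and chr1:24611501-24616500 held 25767 counts in muscle and 427 in T cells. This stretch is known as a nuclear copy of mitochondrial DNA. The mitochondrial chromosome itself, which is outside the members, had 184191 counts in muscle and 1253 in T cells at 28 months, and 30746 and 1116 at 2 months. Among windows with at least 500 counts in each tissue, chromosome 18 left out, the other 9 highest were CpG-poor, with 361 to 456 CpGs. Their ratios ran from 1.84 to 1.96. Of these 9, 3 held no protein-coding gene, 1 held 6 olfactory receptor genes, and the others overlapped Mgat4c, Kcnip4, Krtap20-2, Dlg2 or Ptprd. Over the Ptprd window, which lies in a gene of a receptor tyrosine phosphatase, muscle had 918, 1102 and 2084 counts at 2, 20 and 28 months and T cells 776, 705 and 582.

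To see which tissue differences were left in superaged mice, bins were picked by the 20-month columns alone and then read at 28 months. Of 40107 bins over 4-fold higher in muscle at 20 months, with at least 20 counts there, 62.2% were still over 2-fold higher in muscle at 28 months, against 50.7% of all members. Their median difference was 1.34. Of 41848 bins over 4-fold higher in T cells, 78.5% were still over 2-fold higher in T cells, against 14.4% of all members, with a median difference of -1.84. The opposite direction by over 2-fold was seen in 0.666% and 1.12%. Read at 2 months, the same bins gave 36.6% and 67.6%, against 21.4% and 12.3% of all bins with a read at that age. The T-cell-higher bins had a median of 8 CpGs, 13.7% of them lay in promoters and 14.6% of their bases were repeats. For the muscle-higher bins these were 4 CpGs, 2.68% and 31.5%, near the share of promoter bins among all bins, 2.60%. The share over all members is not a like baseline for CpG number. Of all bins with 8 CpGs, 45.1% were over 2-fold higher in T cells at 28 months, and of all bins with 4 CpGs, 47.1% were in muscle. Picked by the 2-month columns instead, 56.0% of 26410 muscle-higher bins and 63.3% of 28425 T-cell-higher bins were over 2-fold the same way at 28 months. These shares depend on the scale. With each column set to the same sum, 356594 bins were picked for muscle, of which 93.3% were over 2-fold at 28 months. For T cells 8891 were picked, of which 54.9% were. With this scaling, 3628623 of all 4766940 members were over 2-fold higher in muscle at 28 months and 40386 in T cells. Windows differed from bins in this reading. Of 1127 windows over 1.5-fold higher in muscle at 20 months, 1116 were so at 28 months (16.9% of all windows) and 13 at 2 months (0.279%). Of 1531 windows higher in T cells, 1460 were so at 28 months (23.7% of all windows) and 56 at 2 months (0.728%). The median log2 ratio of the latter was -0.69 at 20 months and -1.04 at 28 months. The windows picked for muscle had a median of 433 CpGs and those picked for T cells 1429, so all windows are not a like baseline. At 28 months, 89.6% of all windows under 400 CpGs and 50.5% of those from 400 to under 600 were over 1.5-fold higher in muscle. Of all windows from 1200 to under 1600 CpGs, 88.6% were over 1.5-fold higher in T cells.

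**Figure D4:**
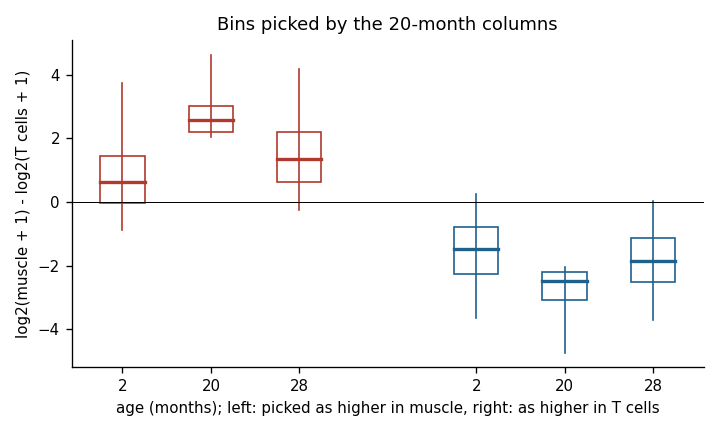
Difference of log2(count + 1), muscle minus T cells, at 2, 20 and 28 months in bins picked by the 20-month columns, with 40107 bins picked as higher in muscle on the left and 41848 as higher in T cells on the right. Boxes span the 25th to 75th percentile with the median as a bar, and lines the 5th to 95th; the 20-month values are what the bins were picked by.

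Bins that differed the same way at every age mostly stood alone, and the longer runs of them are described here with the genes they lie at. The runs were chosen after the data had been seen, and their values at all 3 ages are what chose them. At 28 months 284828 bins with at least 20 counts were over 2-fold higher in muscle, and 44146 of them (15.5%) were so at all 3 ages. In T cells it was 58187 of 648299 bins (8.98%). Joined where adjacent, they made 41284 and 45473 runs, of which 16 and 147 had at least 5 bins. The longest had 10 bins in muscle and 78 in T cells, and these were the mitochondrial copy on chromosome 1 and the satellite repeats at the start of chromosome 9.

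Of the 16 muscle-higher runs, those described here were chosen after their values were seen, and others lay at Nsmce2, Cenpo, Mob3a and Pip5k1c. At Kcna3, which encodes a voltage-gated potassium channel of T cells, the run chr3:107037001-107039500 held 263, 190.3 and 130 counts in muscle at 2, 20 and 28 months and 2.03, 14.6 and 2.64 in T cells. At 28 months this was a ratio of 49.2 with a 95% counting interval of 13.4 to 409, which rests on 2 T-cell reads. At Cytip, a cytohesin partner of lymphocytes, the run chr2:58158501-58161000 held 141 counts in muscle and 3.97 in T cells at 28 months, against 287 and 7.11 at 2 months. The runs at Arhgap25, a Rac-regulating protein of blood cells, and Rac2, a GTPase of blood cells, had ratios of 21.5 (9.08 to 66.9) and 11.0 (6.04 to 22.3). S1pr4, a sphingosine 1-phosphate receptor of lymphocytes, had 518, 359 and 196 counts in muscle against 18.3, 18.3 and 26.4 in T cells. Thus, at the runs of Kcna3, Cytip and S1pr4 the muscle column was lower at 28 months than at 2 months while the T-cell column stayed under 30 counts. Fnbp1, Rasa3 and Fli1, the last an ETS factor of blood and endothelium, had ratios of 17.4, 16.5 and 5.65, all in introns. In muscle RNA at 28 months Kcna3 had 0, 1.38 and 0 normalized counts in the 3 libraries, and Cytip 38.0, 19.3 and 5.66. A run without any CpG, in an intron of Map6, also passed, with 307 counts in muscle and 18.5 in T cells.

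The T-cell-higher runs below were likewise chosen after their values were seen. At Nfic, a nuclear factor I protein, the run chr10:81411001-81414500 held 20.0, 16.0 and 54.8 counts in muscle and 566, 544 and 646 in T cells. At 28 months this was an 11.8-fold difference (9.36 to 15.0), and Nfic had 19058, 15783 and 18445 normalized counts of muscle RNA. At Mbnl2, a muscleblind-like splicing regulator, the run chr14:120295501-120299000 held 38.2 counts in muscle and 402 in T cells, a 10.5-fold difference (7.94 to 14.1). Hspg2, which encodes the basement membrane proteoglycan perlecan, held several runs in introns, with T cells 5.27-fold higher over 10 bins and 9.06-fold over 7 bins. Rbm20, the splicing factor of titin, had 122 counts in muscle and 720.4 in T cells over chr19:53850001-53853500, against 166 and 527 at 2 months. Runs were also found at the muscle genes Casq1, Bag3, Cpt1b and Slc25a4. Of the genes at T-cell-higher runs, 58 of 108 had a mean of 1000 or more normalized counts of muscle RNA, and of those at muscle-higher runs 1 of 13 had, where 18.3% of all genes in the RNA table did. RNA counts were not divided by gene length. Not all runs were at muscle genes: Gbx2, a homeobox gene with 0, 11.0 and 3.77 counts of muscle RNA, was 10.6-fold higher in T cells, and Gfi1, a repressor of blood cells, 9.57-fold over 6 bins of exons and introns. Jak3, the kinase of lymphocyte cytokine receptors, carried both directions. Its promoter was higher in muscle, as given below, whereas over chr8:71685501-71690500 at Jak3 and Insl3 T cells had 1636 counts and muscle 156.

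Promoters of the 20807 protein-coding genes were next compared as sums over the bins touching 1000 bp on each side of the start. The median log2 ratio of (sum + 1) was -0.17 at 28 months and -0.15 at 2 months. Over 2-fold, 5644 promoters (27.1%) were higher in muscle and 5666 (27.2%) in T cells, against 2398 (11.5%) and 3075 (14.8%) at 2 months and 2424 (11.6%) and 5241 (25.2%) at 20 months. With each column set to the same sum, the numbers at 28 months were 12184 and 686. Each list is therefore given relative to the median over all promoters.

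Of the 12 promoters highest in T cells, most had little signal in either tissue at 2 months and over 100 counts in the T-cell column at 28 months. At Ptprg, a receptor tyrosine phosphatase, T cells had 10.2, 141 and 477 counts at 2, 20 and 28 months and muscle 5.46, 0 and 8.29. The difference at 28 months was 57.6-fold (33.3 to 109, counting error only). Epha4, an ephrin receptor, had 2.03, 46.2 and 313 counts in T cells and 6.37, 5.89 and 9.56 in muscle. Hmga2, an architectural chromatin protein of embryonic cells, had 0, 96.1 and 329 in T cells and 12.7 in muscle at 28 months. Irs1, the insulin receptor substrate, had 1.02, 7.30 and 137 in T cells and 4.46 in muscle at 28 months, and its muscle RNA was at 5051, 4807 and 3746 normalized counts. Ctbp2, a transcriptional corepressor, had 206 counts in T cells and 6.37 in muscle at 28 months. Col11a1, Igsf9b, Grid1, Nkx2-1 and Negr1 had log2 ratios from -5.01 to -4.57. Agap2, a GTPase-activating protein, differed in that its T-cell value was already high at 2 months, 161 counts against 7.28 in muscle. Among these 12, Agap2 alone had over 100 counts in T cells at 2 months, and none had over 15 in muscle at 28 months.

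CpG-dense promoters with little signal at 2 months were counted as well. Of 2594 promoters with at least 80 CpGs and at most 20 counts in both tissues at 2 months, 52 had at least 100 counts in T cells at 20 months and 208 (8.02%) at 28 months. In muscle 0 of them did at either age. The median over these promoters was 6.09, 9.73 and 7.93 counts in T cells and 7.28, 6.74 and 22.3 in muscle. High T-cell values were thus found at a minority of these promoters, and their median in muscle was higher at 28 months than at 2 months. Low counts at 2 months were what picked them, so a later rise is partly fixed by the choice. Among all 5216 promoters with 80 to under 120 CpGs, 896 had over 100 counts in T cells at 2 months and 1595 at 28 months. In muscle the numbers were 566 and 226.

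The 12 promoters highest in muscle had 0 to 3 reads in T cells at 28 months. Fermt3, which encodes the integrin activator kindlin-3 of blood cells, had 127, 137 and 89.9 counts in muscle and 0, 2.43 and 0 in T cells. Set against 3 reads, the limit that a count of 0 allows in T cells, it was at least 22.7-fold higher in muscle, and the exact 95% lower limit, which also covers the counting error in muscle, was 18.2. At Jak3, muscle had 83.7, 74.1 and 83.5 counts and T cells 10.2, 9.73 and 0, at least a 21.1-fold difference against 3 reads (exact lower limit 16.9). Traf3ip3, an adaptor protein of lymphocytes, was at least 19.4-fold higher in muscle against 3 reads (exact lower limit 15.6), with 77.1 counts. Gpr132, a G protein-coupled receptor of immune cells, had 215, 147 and 113 counts in muscle and 13.2, 6.08 and 3.97 in T cells. Its ratio of 28.5 at 28 months had a counting interval of 9.58 to 139. Glipr1 had 186, 156 and 99.4 counts in muscle and 4.06, 12.2 and 2.64 in T cells. At these 5 promoters muscle was over 2-fold higher at 2 months too, by at least 2.93 on the log2 scale. Sptbn1 and Hist1h4b were likewise over 2-fold higher at 2 months. At Rsad1 and Speer4e the log2 ratio at 2 months was only 0.61 and 0.52, whereas at 28 months muscle was at least 17.8-fold higher at Rsad1 against 3 reads (exact lower limit 14.3) and 79.6-fold (14.1 to 3161) at Speer4e. Speer4e and Hist1h4b belong to families of near-identical genes, so their reads may be shared with other copies. Il1rn, Gtdc1 and Speer4e had only 10 to 13 CpGs, and in muscle 63.7 to 105 counts at 28 months against 17.3 to 42.8 at 2 months.

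Of the 24 T-cell surface and signalling genes, 7 were over 2-fold higher in muscle at 28 months (27.1% of all promoters) and 4 in T cells (27.2%). At 2 months 21 of them were over 2-fold higher in muscle (11.5% of all promoters) and 0 in T cells (14.8%). Relative to all promoters the list median was 1.75, 0.89 and -0.20 at 2, 20 and 28 months. In place of the 28-month muscle column, the 20-month one gave 0.61, and relative to promoters with as many CpGs the median at 28 months was 0.31. The promoters over 2-fold higher in muscle at 28 months included Cd3g, Cd5, Lcp2, Ptprc, Il7r and Themis, of which Themis was under 2-fold at 2 months. Lcp2, the adaptor SLP-76 of T cell receptor signalling, had 54.2 counts in muscle and 5.29 in T cells, against 83.7 and 8.12 at 2 months. Ptprc, the leukocyte phosphatase CD45, had 116 in muscle and 27.8 in T cells. In the other direction, Zap70, the kinase of the T cell receptor, had 80.2, 275 and 345 counts in T cells and 215, 274 and 166 in muscle. Cd8a, the coreceptor of cytotoxic T cells, had 158, 287 and 358 in T cells and 145 in muscle at 28 months. The T-cell column was higher at 28 months than at 2 months in 22 of the 24, and in 13323 of all 20807 promoters.

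Of 16 lymphoid transcription factors, 4 were over 2-fold higher in muscle (27.1% of all promoters) and 7 in T cells (27.2%) at 28 months, against 10 (11.5%) and 2 (14.8%) at 2 months. Runx1, a factor of blood cell formation, had 257, 233 and 149 counts in muscle and 16.2, 52.3 and 39.7 in T cells. Tcf7, the factor TCF-1 of T cells, had 146, 125 and 78.4 in muscle and 32.5, 179 and 197 in T cells. Bcl11b, required for T-lineage commitment, had 6.09, 29.2 and 152 in T cells and 10.8 in muscle at 28 months. Ikzf3 and Myb stayed near 0 in T cells at 28 months, with 3.97 and 1.32 counts, against 44.0 and 24.2 in muscle. Id3, an inhibitor of helix-loop-helix factors, was over 2-fold higher in T cells at 2 and 28 months.

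Promoters of B cell markers, which were compared because spleen holds B cells, had a list median of 1.24 above all promoters at 28 months and 0.29 at 2 months, and 6 of 10 were over 2-fold higher in muscle (27.1% of all promoters). Blnk, the adaptor of the B cell receptor, had 88.3, 73.0 and 37.0 counts in T cells and 84.6, 74.1 and 85.4 in muscle. Others went the other way: Cd79a and Pax5 were higher in T cells at 28 months, with log2 ratios of -0.63 and -0.55. Cd22 and Ebf1 were near level, at 0.11 and 0.09. The list of 10 macrophage and myeloid markers had 1 promoter over 2-fold higher in muscle, Mpeg1, and 2 in T cells (27.2% of all promoters), with a median of -0.25 relative to all, which became 0.31 and 0.52 with the 20- and 2-month muscle columns. The part of other spleen cells in the T-cell column was not tested. For the other cell types of muscle, the medians relative to all promoters were -0.20 for 10 fibroblast and matrix markers, -0.50 for 8 endothelial and -0.63 for 6 adipocyte markers. These depended on the muscle column and on CpG number. With the 20- and 2-month muscle columns the fibroblast median became -0.64 and -0.67, the endothelial one 0.06 and 0.04, and the adipocyte one -0.02 and -0.27. Relative to promoters with as many CpGs they were -0.52, 0.02 and -0.46. In muscle RNA at 28 months the 6 T-cell markers summed to 28.3 to 44.2 normalized counts over the 3 libraries, the 4 B cell markers to 19.3 to 118, and the 6 muscle markers to 4242536 to 4697524.

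Muscle structure and contraction genes were mostly higher in T cells at 2 and at 28 months. Of 35 promoters, 18 were over 2-fold higher in T cells at 28 months (27.2% of all promoters) and 1, Myl1, in muscle (27.1%), against 16 (14.8%) and 1 (11.5%) at 2 months. The list median relative to all promoters was -0.55, -0.66 and -1.09 in order of age. Relative to promoters with as many CpGs it was -0.71, -0.71 and -0.68, and with the 20-month muscle column in place of the 28-month one it was -0.71 at 28 months. Pygm, the muscle glycogen phosphorylase, had 224, 251 and 307 counts in T cells and 37.3, 48.8 and 45.9 in muscle. Casq1, the calcium-binding protein of the sarcoplasmic reticulum, had 456, 546 and 543 in T cells and 109, 82.5 and 92.4 in muscle. Mybpc1, Tcap, Cacna1s, Myoz1 and Tpm2 were over 2-fold higher in T cells at 2 and 28 months as well. Ckm, Eno3 and Atp2a1, over 2-fold at 2 months, had log2 ratios of -0.75, -0.32 and -0.73 at 28 months. Myh4 and Acta1, with ratios of -0.22 and -0.47 at 2 months, had -1.94 and -2.01. Muscle transcription factors, with a median of -1.49 relative to all promoters and of -0.84 relative to those with as many CpGs, were over 2-fold higher in T cells at 14 of 21 genes and in muscle at 1, against 4 and 5 at 2 months. Vgll2, a coactivator of muscle differentiation, had 2.03, 43.8 and 168 counts in T cells and 12.1 in muscle at 28 months. Myf5, a myogenic regulatory factor, had 344, 411 and 492 in T cells and 275, 173 and 136 in muscle. Mef2d, a myocyte enhancer factor, was the 1 member over 2-fold higher in muscle, with 8.29 counts against 0 and an exact lower limit of 1.47-fold.

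Germline promoters, which somatic cells methylate, were alike in the tissues at 2 months and apart at 28 months. A like change was seen over all bins with 18 CpGs, with median differences of -0.13 and -1.86, so it was not particular to these genes. Of 14 germline genes, 13 were over 2-fold higher in T cells at 28 months (27.2% of all promoters) and 0 at 2 months (14.8%), with medians relative to all promoters of -1.51 and 0.08. Ddx4, an RNA helicase of germ cells, was the member under 2-fold, at a log2 ratio of -0.94. At Dazl, the RNA-binding protein of germ cells, T cells had 478, 569 and 821 counts and muscle 424, 349 and 155. Sycp3, of the meiotic chromosome axis, had 423, 475 and 612 counts in T cells and 392, 253 and 158 in muscle. All 14 were lower in muscle and higher in T cells at 28 months than at 2 months, where 7519 of all 20807 promoters were lower in muscle and 13323 higher in T cells. Of 16 imprinted genes, whose control regions carry methylation on the copy from 1 parent, 15 were over 2-fold higher in T cells at 28 months, 6 at 20 months (25.2% of all promoters) and 0 at 2 months. Peg3 had 323, 372 and 575 counts in T cells and 319, 223 and 127 in muscle, and Mest 268, 417 and 492 against 303, 201 and 104. Inpp5f was the exception, with a log2 ratio of -0.49. The imprinted median relative to all promoters was -1.88. The germline and imprinted medians were -1.19 and -1.74 relative to promoters with as many CpGs. With the 20-month muscle column in place of the 28-month one they were -0.44 and -0.72, and with the 2-month one -0.11 and -0.43.

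Hox genes and other developmental transcription factors were also mostly higher in the T-cell column at 28 months. Of 39 Hox promoters, 26 were over 2-fold higher in T cells (27.2% of all promoters) and 1, Hoxa3, in muscle (27.1%) at 28 months, against 12 (14.8%) and 5 (11.5%) at 2 months. Hoxa5 had 569, 689.9 and 827 counts in T cells and 381, 223 and 145 in muscle. Hoxd13 had 27.4, 103 and 137 in T cells and 21.8, 21.9 and 20.4 in muscle. Of 18 other factors, 16 were over 2-fold higher in T cells, with a median of -2.44 relative to all promoters. Sox1, of neural progenitors, had 6.09, 68.1 and 182 counts in T cells and 7.01 in muscle at 28 months, and Tbx3, of limb and heart, 8.12, 12.2 and 308 against 28.0. The 13 housekeeping promoters had medians of 0.47, -0.08 and 0.63 relative to all promoters at 2, 20 and 28 months, and the last became -0.38 with the 20-month muscle column. Actb had 2.64 counts in T cells and 20.4 in muscle, whereas Gapdh, with 10.8 in muscle, was 7.20-fold higher in T cells.

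**Figure D5:**
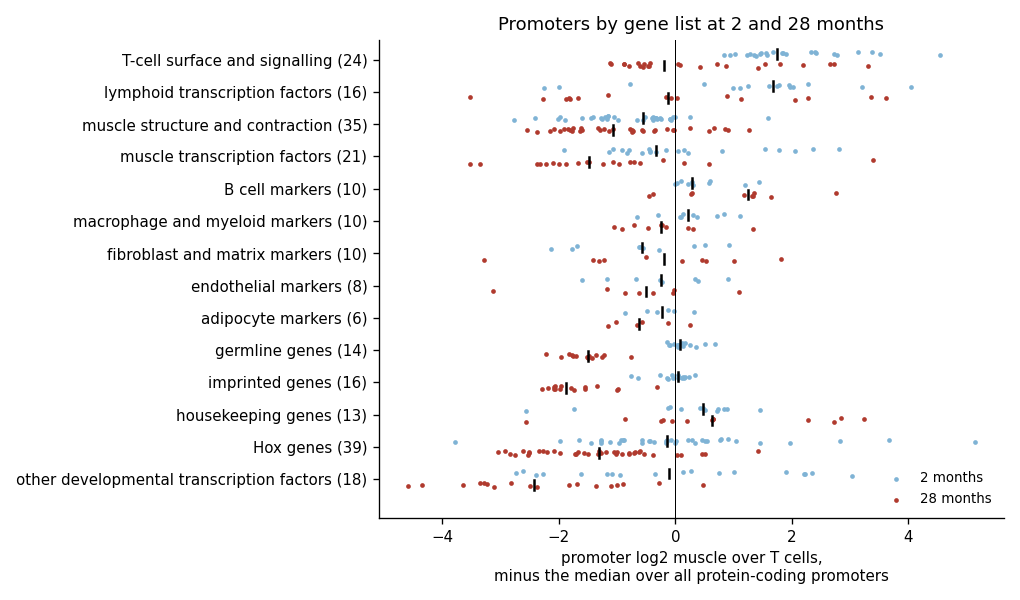
Log2 ratio of muscle to T cells at promoters of 14 gene lists at 2 and 28 months, minus the median over all protein-coding promoters at that age. Points are genes, bars are list medians and the number of genes is in brackets; the T-cell list median is 1.75 at 2 months and -0.20 at 28 months, and the imprinted list 0.05 and -1.88.

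Grouped by muscle RNA at 28 months, promoters of the 3991 genes with a mean of 1000 or more normalized counts had a median log2 ratio of 0.01, and those of the 3625 genes at 0 in all 3 libraries had 0.35. This difference of -0.34 between the end classes was -0.19 without the RNA library of replicate 2. The middle classes were lower than both: genes with a mean above 0 and under 10 had -0.47, and those from 10 to under 1000 had -0.28. The silent promoters had a median of 18 CpGs and the most abundant class 100. Relative to promoters with as many CpGs, the order was turned, with 0.37 for the abundant class and -0.15 for the silent one, whereas at 2 months the values were -0.06 and -0.02. Over gene bodies the medians were -0.75 and -0.07, with 5.20 and 3.72 CpGs per bin. CpG number thus moved with RNA class, and the direction of the promoter difference between the classes depended on whether it was taken into account.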

How the data were processed

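MBD-seq and muscle RNA-seq values were used as deposited. For MBD-seq, the authors aligned reads with Bowtie2, counted them in 500-bp bins with bedtools and divided by a size factor, so the deposited signal is a normalized read count per bin. For RNA-seq, the authors counted reads per gene with HTSeq and the deposited signal is a count divided by a DESeq2 size factor. The submitters' processing notes also name Trim Galore and TopHat and give no versions, whereas the study's methods name Hisat2 for the RNA alignment. All values were whole multiples of the value of 1 read within 0.001 (100% in each MBD-seq column), which gave the reads behind each count. RNA entries that name no gene (44.0%, 45.5% and 38.9% of counts in the 28-month libraries) were left out.

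Differences were computed as log2(value + 1), muscle minus T cells, per bin, and from sums over 100-kb windows and over promoters. Promoters and exons came from GENCODE for GRCm38 and CpGs from its RefSeq sequence. Named promoters were the 12 highest and 12 lowest log2 ratios with at least 100 reads in the higher tissue, 1 per 10 kb, without predicted, Olfr and Vmn genes or chromosome 18. Members of the gene lists and the antigen receptor loci were named as well. Values of a few of these genes are not reported here. Named windows were the 10 highest and 10 lowest with at least 500 counts in each tissue, also without chromosome 18. Printed bins came from the 5 most extreme each way at named promoters. Intervals on ratios are exact (Clopper-Pearson) 95% intervals on the reads. They cover counting error only, since PCR copies are not independent molecules. A count of 0 was set to 3 reads for a lower bound. The members and the gene lists were chosen with earlier results of these data known. With 1 column per tissue and age, no test was made. Alternatives were other scalings, pseudocounts, filters and region sizes, and each RNA library left out. Subtraction of regions with as many CpGs, a younger muscle column in place of the 28-month one, and runs of at least 5 bins were chosen after seeing the data. Steps were checked on simulated data. Python 3.11.15, numpy 2.4.6, pandas 2.3.3, scipy 1.17.1 and matplotlib 3.10.9 were used.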

Additional observations from a re-analysis of the deposited data

Results flagged for a closer look

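Some listed promoters were over 2-fold higher in muscle at 2 months and over 2-fold higher in T cells at 28 months. None of these changes of direction was tested, since each tissue and age had 1 column. Among T-cell genes they were Zap70, with a log2 ratio of 1.41 at 2 months and -1.05 at 28 months, Lat (1.13 and -1.28) and the homing receptor Ccr7 (1.43 and -1.06). Among lymphoid transcription factors they were Tcf7 (2.13 and -1.32), Ikzf1 (1.82 and -1.84) and Satb1 (1.09 and -1.98). Among muscle genes they included Actn2 (1.44 and -1.81), Pax3 (1.91 and -1.25) and Vgll2 (2.66 and -3.69). Among Hox genes they were Hoxa11 (2.68 and -1.48), Hoxc8 (30.9 counts in muscle against 0 in T cells at 2 months, and -1.17 at 28 months) and Hoxd9 (1.30 and -1.50). Lhx2 (2.07 and -2.0), Tbx5 (6.37 counts in muscle against 0 in T cells at 2 months, and -2.67 at 28 months) and Pitx1 (2.05 and -1.18) were the other developmental factors.

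The mitochondrial chromosome, which no comparison used, had 184191 counts in the 28-month muscle column, against 30746 and 21513 in the younger muscle columns and 1116 to 1519 in the T-cell columns.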

How the results depend on the processing

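No paired analysis was possible because each tissue and age had 1 column and no test was made between tissues. With each column set to the same sum, 40386 bins were over 2-fold higher in T cells, the bin median was 2.25, the window median 1.37 and the promoter median 1.32, the last 2 reversed, with 22096 windows over 1.5-fold higher in muscle and 16 in T cells, and 12184 and 686 promoters over 2-fold. With the same median, the bin and window medians were 0.90 and -0.30. A pseudocount of 0.25 gave a bin median of 1.19, and a pseudocount of 5 gave 0.59 with 1589539 bins higher in muscle. Bins with a mean of at least 5 counts gave 0.40 and 1299827. Windows of 1 Mb over 1.5-fold numbered 183 for muscle and 562 for T cells. A promoter flank of 500 bp gave a promoter median of 0.23, and list medians relative to it of -0.56 for T-cell genes, -0.71 for lymphoid factors, 0.69 for B cell, -0.43 for macrophage, -0.91 for fibroblast and -1.02 for endothelial markers, 1.31 for housekeeping and -2.32 for Hox genes.

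Relative to regions with as many CpGs, 297 and 462 windows were over 1.5-fold higher in muscle and T cells, and 3761 promoters were over 2-fold higher in T cells. The 20-month muscle column in place of the 28-month one gave 1473321 bins higher in muscle, a bin median of 0.45, windows of 1181 and 2940, and 2970 promoters higher in muscle. The 2-month one gave 1287856, 0.30, 582 and 1402, and 2773. List medians relative to all promoters changed sign for T-cell genes (0.31 by CpG number, 0.61 and 0.64 with the 20- and 2-month muscle columns), lymphoid factors (0.27 by CpG number, 0.13 with the 2-month column), endothelial markers (0.02 by CpG number, 0.06 and 0.04 with the 20- and 2-month columns), macrophage markers (0.31 and 0.52 with the 20- and 2-month columns) and housekeeping genes (-0.38 with the 20-month column). Without each RNA library in turn, the promoter median of the most abundant class minus that of the silent class was -0.29 to -0.19. The cause of these shifts was not tested. With 1 column per tissue, animal and capture differences are not in any interval.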

Other observations

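Over matrix and vessel genes, which whole muscle also holds, single promoters differed at 28 months in both directions, though 0 of the 8 endothelial promoters were over 2-fold higher in muscle. Fn1, which encodes fibronectin, had 4.06, 18.3 and 122 counts in T cells at 2, 20 and 28 months and 5.46, 3.37 and 10.2 in muscle. Kdr, the endothelial receptor of vascular growth factor, had 97.4, 157 and 268 in T cells and 38.2, 41.3 and 26.1 in muscle. Lum, which encodes the matrix proteoglycan lumican, was higher in muscle, with 31.2 counts against 9.25, and Col1a2, a chain of type I collagen, was higher in T cells, with 107 against 37.6. Emcn, an endothelial sialomucin, had a log2 ratio of 0.92. Among promoters picked by the 20-month columns (over 4-fold and at least 100 counts), 44 of 49 higher in muscle and 616 of 647 higher in T cells were over 2-fold the same way at 28 months, against 27.1% and 27.2% of all promoters. Their median log2 ratios were 2.22 and -2.35. Picked by the 2-month columns instead, it was 60 of 91 higher in muscle and 105 of 113 higher in T cells.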
